A study of Mus musculus with 4 samples.

Results

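The cyclin-dependent kinase inhibitor genes were examined across 4 microarrays of regulatory T cells (Tregs). They were 8 genes, chosen by name from the gene names in the scanner files: Cdkn1a, Cdkn1b, Cdkn1c, Cdkn2a, Cdkn2b, Cdkn2c, Cdkn2d and Cdkn3. They had 13 probes and 22 spots, out of 22440 named genes, 55670 probes and 59305 non-control spots. The family was taken up with earlier values of the splenic genotype comparison known, among them the opposite directions of the Cdkn1a probes, so the values are given as a description with no test. Every probe is reported apart.

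The groups were Tregs from the thymus of deltaDC mice, the thymus of WT mice, the spleen of deltaDC mice and the spleen of WT mice, with 1 array each. All mice were C57BL/6 males, per the labels, which neither spell out the deltaDC allele nor give an age. Each sample pooled cells of 3 mice per genotype, so the arrays hold no spread between animals. CD4 T cells were first enriched by kit, with depletion of CD8-bearing cells in the thymus, and Tregs were then sorted as live cells bearing CD4 and CD25. The transcription factor Foxp3, which defines Tregs, was not part of the sort. Its probe was bright on all arrays, at scaled signals of 10581 in deltaDC thymus, 8879.8 in WT thymus, 10926 in deltaDC spleen and 11688 in WT spleen.

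RNA was labelled with 1 dye (Cy3) and hybridised to an Agilent mouse design. A scaled signal is a probe's background-subtracted fluorescence, set to a common 75th percentile on each array. It serves to compare 1 probe between arrays and says nothing of the level of 1 gene against another. Between 48.7% and 50.7% of spots were well above background, a flag that the scanner software sets for each spot. A probe was taken as above background on an array where at least 50% of its spots carried that flag. Of the 13 member probes, 7 were above background on all 4 arrays and 1, of Cdkn1a, on none. Errors on log2 differences come from probes spotted 10 times on the array and cover spot noise alone, without the labelling, the sort or the mice. In bulk samples, fewer cells of a type and less RNA per cell cannot be told apart.

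Cyclin-dependent kinases (CDKs) drive a cell through its division cycle, and these inhibitors hold them back. The Cip/Kip proteins, p21 (Cdkn1a), p27 (Cdkn1b) and p57 (Cdkn1c), bind complexes of cyclins with several CDKs. The INK4 proteins, p16 (from Cdkn2a), p15 (Cdkn2b), p18 (Cdkn2c) and p19 (Cdkn2d), bind CDK4 and CDK6 and so keep the retinoblastoma protein active. Cdkn2a also encodes Arf, a separate protein that stabilises p53 by binding Mdm2. Cdkn3 encodes a phosphatase that removes the activating phosphate of CDK2 and is itself made mostly in dividing cells. In resting T cells p27 is the inhibitor best known for maintaining quiescence.

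The 3 Cdkn1a probes are shown first because their values differ in direction. All lie on the plus strand of chromosome 17 in the mm9 build that the files use, and the first 30 of their 60 bases are printed, 5′ to 3′, in lower case. Among RefSeq transcripts, per the files, the first matches variants 1 and 2 and the third variant 2 alone. The second matches no RefSeq transcript there, but an Ensembl transcript and a GenBank sequence. The files do not say whether a probe lies in an exon, an intron or a UTR.
A_51_P363947 (chr17:29237377-29237436, spotted 10 times): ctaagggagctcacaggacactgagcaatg
A_55_P1976204 (chr17:29235299-29235358): tggggtagtttccatagtgacccgggtcct
A_55_P1986282 (chr17:29227986-29228045): aatggagacagagaccccagataattaagg

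Promoters of the 4 genes whose signals stood farthest apart between the splenic arrays are shown next, from 250 bases before to 50 after each RefSeq start site (GRCm38.p6), on the gene's strand. Capitals mark letter matches on either strand. In Cdkn1a they mark a pair of p53 half-site cores (CATGNNNNNNCATG), which begins at position -48 of its first start site and is found in 0.712% of 32851 mouse promoters of that length. In Cdkn3 they mark the CCAAT box and the cell cycle homology region (TTTGAA), found in 37.4% and 17.9% of promoters. In Cdkn2a and Cdkn2b they mark the GC box (GGGCGG, 35.7%) and any CCAAT box, which was found only at the second Cdkn2a start site. Matches to motifs chosen for another gene are left in lower case. These are 1 TTTGAA at -161 in Cdkn2b, and 2 GC boxes at the second Cdkn1a start site and 4 in Cdkn3. The Cdkn3 window held 4 CCAAT boxes and 1 TTTGAA. The CCAAT box and GC box of the second Cdkn2a start site overlap. A match says only that these letters are in the window.
Cdkn1a start site 1 (chr17:29090729-29091028, +): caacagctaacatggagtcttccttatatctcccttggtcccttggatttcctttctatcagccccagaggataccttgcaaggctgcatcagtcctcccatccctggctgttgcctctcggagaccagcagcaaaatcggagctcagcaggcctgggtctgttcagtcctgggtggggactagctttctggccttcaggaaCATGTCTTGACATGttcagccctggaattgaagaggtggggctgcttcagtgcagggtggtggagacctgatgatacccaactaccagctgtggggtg
Cdkn1a start site 2 (chr17:29093519-29093818, +): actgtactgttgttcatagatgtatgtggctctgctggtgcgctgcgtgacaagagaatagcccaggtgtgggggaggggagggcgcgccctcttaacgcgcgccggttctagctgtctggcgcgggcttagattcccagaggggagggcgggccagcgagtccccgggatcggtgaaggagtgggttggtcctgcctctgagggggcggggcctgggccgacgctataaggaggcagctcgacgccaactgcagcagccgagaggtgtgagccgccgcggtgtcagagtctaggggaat
Cdkn2a start site 1 (chr4:89294570-89294869, -): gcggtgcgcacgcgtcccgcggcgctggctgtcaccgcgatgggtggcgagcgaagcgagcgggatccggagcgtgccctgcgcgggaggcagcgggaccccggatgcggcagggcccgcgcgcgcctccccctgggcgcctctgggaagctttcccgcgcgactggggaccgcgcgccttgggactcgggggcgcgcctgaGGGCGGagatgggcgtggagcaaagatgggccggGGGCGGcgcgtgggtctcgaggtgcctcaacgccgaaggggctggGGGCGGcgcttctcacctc
Cdkn2a start site 2 (chr4:89282143-89282442, -): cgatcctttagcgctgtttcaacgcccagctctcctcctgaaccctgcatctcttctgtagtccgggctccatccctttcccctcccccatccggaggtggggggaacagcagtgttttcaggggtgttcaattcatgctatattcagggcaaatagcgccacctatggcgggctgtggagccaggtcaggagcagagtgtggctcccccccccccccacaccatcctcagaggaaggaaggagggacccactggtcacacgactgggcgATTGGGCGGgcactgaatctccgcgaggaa
Cdkn2b (chr4:89310983-89311282, -): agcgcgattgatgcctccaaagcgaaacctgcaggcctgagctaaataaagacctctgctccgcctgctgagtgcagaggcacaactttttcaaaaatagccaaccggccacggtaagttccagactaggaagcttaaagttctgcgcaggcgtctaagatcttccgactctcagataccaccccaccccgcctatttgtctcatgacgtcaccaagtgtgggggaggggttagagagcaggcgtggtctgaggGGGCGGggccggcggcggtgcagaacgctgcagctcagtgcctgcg
Cdkn3 (chr14:46760291-46760590, +): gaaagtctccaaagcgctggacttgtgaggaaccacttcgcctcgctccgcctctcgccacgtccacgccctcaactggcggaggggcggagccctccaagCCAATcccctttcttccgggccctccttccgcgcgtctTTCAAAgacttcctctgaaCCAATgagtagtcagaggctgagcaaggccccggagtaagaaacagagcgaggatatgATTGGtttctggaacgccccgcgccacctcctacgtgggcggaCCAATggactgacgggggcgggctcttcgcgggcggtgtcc

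Among the Cip/Kip genes, Cdkn1a differed most between arrays, and by its main probe WT spleen stood apart from the rest. Probe A_51_P363947 had scaled signals of 239 in deltaDC thymus, 287 in WT thymus, 202 in deltaDC spleen and 23.6 in WT spleen. The WT spleen array was the low one, and the other three lay between 202 and 287. In spleen the log2 difference of deltaDC over WT was 3.10 ± 0.15 (spot error), an 8.56-fold higher signal, and in thymus it was -0.27 ± 0.03. Thymus over spleen gave 0.24 ± 0.03 in deltaDC and 3.60 ± 0.15 in WT, a 12.2-fold higher signal.

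The 10 spots of this probe show how much of that rests on 1 dim value. In deltaDC thymus the 9 spots kept ranged from 221 to 249, with a median of 243, and in WT thymus the 10 spots ranged from 264 to 312, with a median of 288. In deltaDC spleen they ranged from 187 to 230.4, with a median of 200.04, and in WT spleen from 13.5 to 39.9, with a median of 22.4. No spot of the WT spleen array reached the lowest spot of any other array. On WT spleen, however, only 5 of the 10 spots were well above background, and the SD between spots was 0.48 on the log2 scale, against 0.06 to 0.09 on the other three. Were more than 50% of spots required, the probe would not count as measured there, a rule tried after the data were seen. With normexp background correction, which adds an offset of 50, the splenic log2 difference was 1.46 and the organ difference in WT was 1.86.

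**Figure D1:**
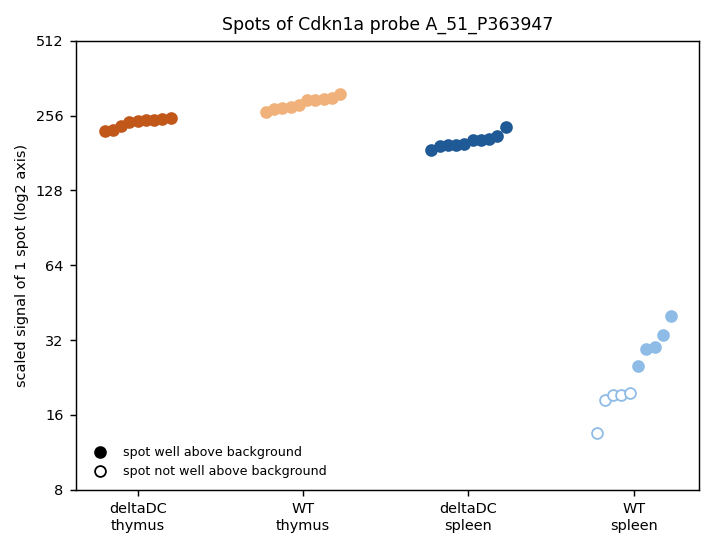
Scaled signal of each spot of Cdkn1a probe A_51_P363947 (vertical axis, log2 scale) on the 4 arrays, ordered by signal within an array. Filled points were well above background. All 10 WT spleen spots, at 13.5 to 39.9, lie below the lowest spot of every other array, and 5 of them are open.

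The other Cdkn1a probes gave little signal. A_55_P1976204 was not well above background on any array, at 3.85 in deltaDC thymus, 6.88 in WT thymus, 3.52 in deltaDC spleen and 4.34 in WT spleen. A_55_P1986282 was not well above background in deltaDC thymus (7.58), WT thymus (3.32) or deltaDC spleen (6.82) and was above it in WT spleen, at 28.2. Its direction in spleen was thus opposite to that of the main probe, at least 3.03-fold lower in deltaDC, and in WT thymus it was at least 1.80-fold lower than in WT spleen. The size of the splenic bound depends on the lowest above-background signal of deltaDC spleen, 9.30. On the other arrays that lowest signal was 15.7 to 17.3. The A_55_P1986282 value rests on 1 spot per array and 1 dim signal. Among RefSeq transcripts this probe matches variant 2 only, whereas the main probe matches both variants.

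Cdkn1b, the gene of p27, differed less than 2-fold in every comparison by both probes, and was lower in thymus than in spleen. A_55_P2026562 (chr6:134875424-134875483) had 6159.7 in deltaDC thymus, 6137 in WT thymus, 8361 in deltaDC spleen and 9337 in WT spleen. A_52_P673863 (chr6:134873606-134873665) had 722 in deltaDC thymus, 1004 in WT thymus, 1045 in deltaDC spleen and 1232 in WT spleen. The log2 difference of deltaDC over WT in spleen was -0.16 ± 0.08 by the first probe and -0.24 ± 0.09 by the second. In thymus the same difference was 0.01 ± 0.08 and -0.48 ± 0.09, so the probes differed there, and the first was -0.08 with quantile normalization. Thymus over spleen was lower in both genotypes, at -0.44 and -0.53 in deltaDC and at -0.61 and -0.29 in WT, with none of these reaching 2-fold.

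Cdkn1c, the imprinted gene of p57, differed by organ rather than by genotype. Its probe A_51_P339540 (chr7:150644753-150644812) had 137 in deltaDC thymus, 165 in WT thymus, 329 in deltaDC spleen and 346 in WT spleen. The thymus arrays were the lower in both genotypes. Thymus over spleen was -1.27 ± 0.13 in deltaDC and -1.07 ± 0.13 in WT, where normexp correction gave -0.90. The difference of deltaDC over WT was -0.27 ± 0.13 in thymus and -0.07 ± 0.13 in spleen.

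Among the INK4 genes, Cdkn2a was highest on the deltaDC spleen array by both probes. A_55_P2008437 (chr4:88920405-88920464) had 30.9 in deltaDC thymus, 339 in deltaDC spleen and 34.6 in WT spleen, and was not well above background in WT thymus (4.12). A_55_P2008438 (chr4:88920543-88920602) had 35.8 in deltaDC spleen and was not well above background in deltaDC thymus (4.07), WT thymus (4.07) or WT spleen (4.57). In spleen, deltaDC over WT was 3.29 ± 0.29 by the first probe, a 9.80-fold higher signal that became 2.01 on the log2 scale with normexp correction, and at least 2.07-fold higher by the second. Both probes match the p16 and the Arf transcripts, per the accessions in the files, so these cannot be told apart.

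Within the deltaDC arrays, the first Cdkn2a probe gave a thymus over spleen difference of -3.45 ± 0.29, or 11.0-fold lower, and the second was at least 2.26-fold lower in thymus. In WT the first probe was at least 2.20-fold lower in thymus. In thymus, deltaDC was at least 1.97-fold higher than WT by the first probe, with the deltaDC signal itself at 30.9.

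Cdkn2b, the neighbour of Cdkn2a on chromosome 4 and a known target of TGF-beta signalling, was also highest in deltaDC spleen. A_55_P1988183 (chr4:88952276-88952335) had 22.6 in deltaDC thymus, 23.0 in WT thymus and 119 in deltaDC spleen, and was not well above background in WT spleen (5.08). A_55_P1979526 (chr4:88952720-88952779) had 37.0 in deltaDC spleen and was not well above background in deltaDC thymus (9.06), WT thymus (4.09) or WT spleen (4.72). The splenic signal of deltaDC was thus at least 6.85-fold higher than that of WT by the first probe and at least 2.13-fold higher by the second. In thymus the first probe gave -0.02 ± 0.39, a wide error at so dim a signal. Thymus over spleen in deltaDC was -2.39 ± 0.29 by the first probe, or -1.14 with normexp correction, and at least 2.33-fold lower by the second. In WT the first probe was at least 1.33-fold higher in thymus.

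Cdkn2c, the gene of p18, was highest in deltaDC spleen as well, with a smaller margin and well measured on every array. A_55_P2074796 (chr4:109333508-109333567) had 259.9 in deltaDC thymus, 297 in WT thymus, 524 in deltaDC spleen and 224 in WT spleen. In spleen, deltaDC over WT was 1.23 ± 0.11, or 2.34-fold higher, and in thymus it was -0.19 ± 0.13. Thymus over spleen was -1.01 ± 0.11 in deltaDC and 0.41 ± 0.13 in WT. The deltaDC organ difference stood at the 2-fold threshold, and was -0.85 with normexp correction, -0.997 with median scaling and -0.97 in the authors' deposited matrix.

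Cdkn2d, the gene of p19, was level across the arrays. A_55_P2022251 (chr9:21092934-21092993) had 7841 in deltaDC thymus, 7163 in WT thymus, 7574 in deltaDC spleen and 8225 in WT spleen, a range of 0.20 on the log2 scale. Its 4 differences lay between -0.20 and 0.13, each with a spot error of 0.08.

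Cdkn3 was, like Cdkn2c, highest in deltaDC spleen and lowest in WT spleen, with both thymus arrays between. A_52_P30989 (chr14:47386895-47386954) had 171 in deltaDC thymus, 167 in WT thymus, 324 in deltaDC spleen and 61.9 in WT spleen. In spleen, deltaDC over WT was 2.39 ± 0.18, a 5.24-fold higher signal that became 1.54 on the log2 scale with normexp correction, and in thymus it was 0.03 ± 0.13. Thymus over spleen was -0.93 ± 0.13 in deltaDC and 1.43 ± 0.18 in WT, or 0.80 with normexp correction.

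**Figure D2:**
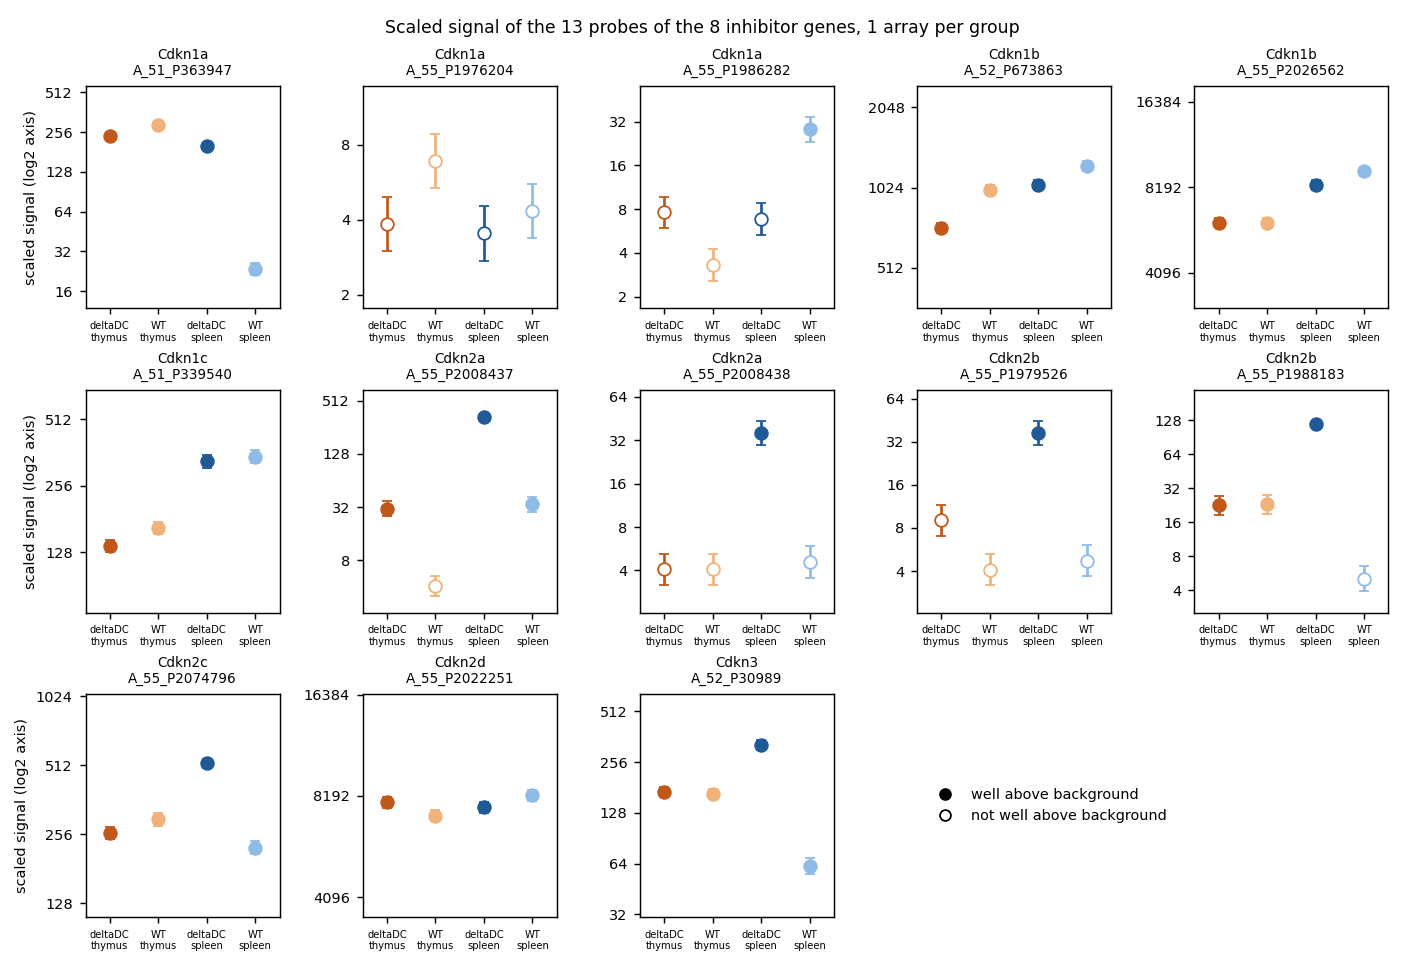
Scaled signal (vertical axes, log2 scale, each panel with its own range) of the 13 probes of the 8 inhibitor genes on the 4 arrays, in the order deltaDC thymus, WT thymus, deltaDC spleen, WT spleen. Filled points were well above background, open points were not, and bars are the spot error. Cdkn1a A_51_P363947 is lowest in WT spleen (23.6), Cdkn2a, Cdkn2b and Cdkn2c are highest in deltaDC spleen, and Cdkn2d is nearly level.

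The first comparison asked how deltaDC and WT Tregs differed in spleen. Of the 13 member probes, 8 were measured on both arrays, and 4 of these were at least 2-fold higher in deltaDC (Cdkn1a, Cdkn2a, Cdkn2c and Cdkn3), where 4.28% of all 25618 probes measured were. None of the 8 was at least 2-fold lower, against 3.54% of all probes. Another 4 were above background on 1 array. Of these, 3 were bounded at 2-fold or more higher (Cdkn2a and both probes of Cdkn2b), against 18.6% of the 3326 probes of that kind. A bound of at least 2-fold lower was found for 1 (Cdkn1a A_55_P1986282), against 25.8%. Bounds in the lower direction start from a smaller lowest signal (9.30 in deltaDC spleen) than those in the higher direction (17.3 in WT spleen), so a lower bound reaches 2-fold more easily. The median log2 difference was 0.58 over the 8 member probes and -0.08 over all probes. The members' share is a description of a family taken up with this contrast in view.

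In thymus, of 8 member probes measured, 0 were at least 2-fold higher in deltaDC and 0 lower, against 0.796% and 0.872% of 26247 probes. With 1 array per group there was no test behind this count, and a threshold other than 2-fold gave the same at 1.5-fold. The median was -0.11 over the members and 0.04 over all probes. The lowest value was -0.48 (Cdkn1b A_52_P673863) and the highest 0.13 (Cdkn2d). Another 4 probes were dim on both thymus arrays, and Cdkn2a A_55_P2008437, above background in deltaDC alone, had its bound at 1.97-fold higher.

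The organ comparison asked how thymic and splenic Tregs of 1 genotype differed. In deltaDC, 0 of 9 member probes measured were at least 2-fold higher in thymus, against 4.67% of all 25821 probes, and 4 were lower (Cdkn1c, Cdkn2a, Cdkn2b and Cdkn2c), against 5.35%. Both probes above background on 1 deltaDC array, of Cdkn2a and Cdkn2b, had bounds of at least 2-fold lower, against 15.0% of 3821 probes. In WT, 2 of 7 member probes were at least 2-fold higher in thymus (Cdkn1a and Cdkn3), against 4.82% of 25338 probes, and 1 was lower (Cdkn1c), against 4.96%. Of 3 above background on 1 WT array, 1 (Cdkn2a) had a bound of at least 2-fold lower, against 15.6% of 3517 probes. The members' median was -0.93 in deltaDC and -0.20 in WT, beside -0.03 and -0.14 over all probes. Cdkn1c, and Cdkn2a by A_55_P2008437 with a bound in WT, were thus at least 2-fold lower in thymus in both genotypes.

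**Figure D3:**
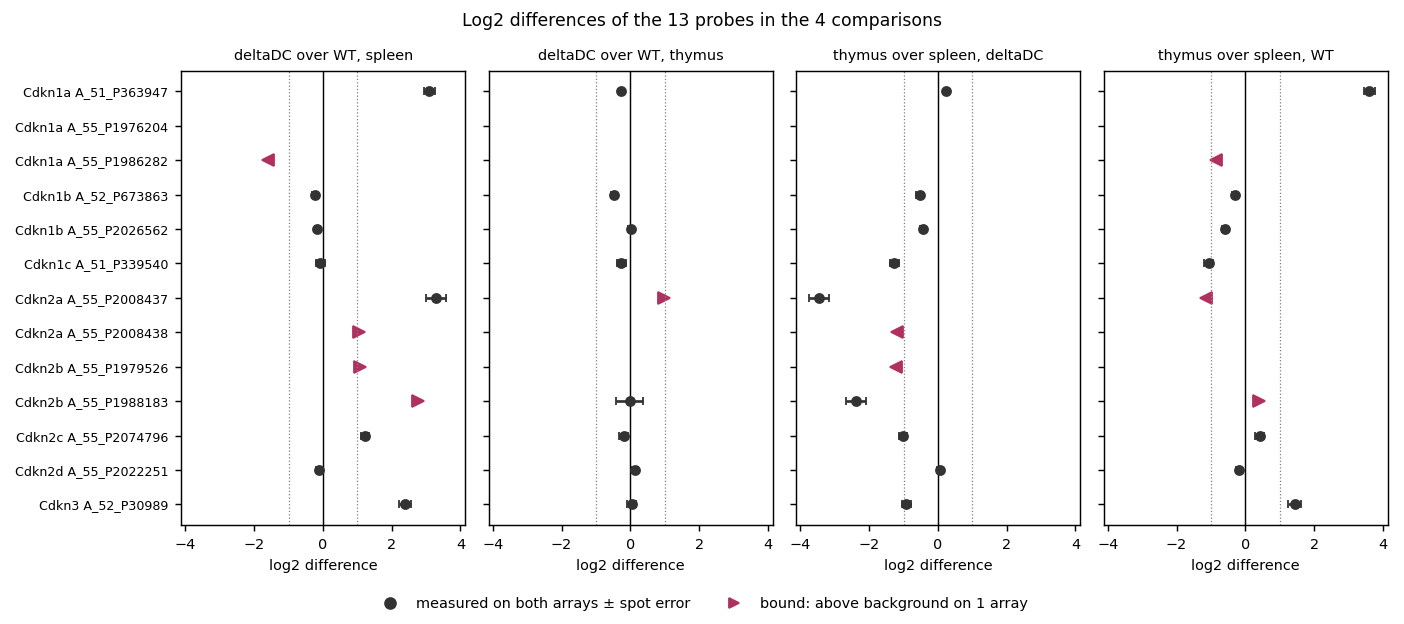
Log2 differences (horizontal axes) of the 13 probes in the 4 comparisons, with deltaDC over WT in spleen and in thymus and thymus over spleen in deltaDC and in WT. Circles were measured on both arrays and carry the spot error, triangles are bounds for probes above background on 1 array and point away from 0, and dotted lines mark 2-fold. In the spleen panel Cdkn1a A_51_P363947 (3.10) and Cdkn2a A_55_P2008437 (3.29) lie farthest right, and in the thymus panel no circle reaches a dotted line.

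For the 7 member probes above background on all 4 arrays, the genotype difference was also compared between the organs. The matching share over all probes was not computed, so the values are given without a count. The splenic minus the thymic log2 difference was 3.37 ± 0.16 for Cdkn1a A_51_P363947, 2.36 ± 0.22 for Cdkn3 and 1.42 ± 0.17 for Cdkn2c. For the other 4 probes it lay between -0.25 (Cdkn2d) and 0.24 (Cdkn1b A_52_P673863). Cdkn2b A_55_P1988183, which was dim in WT spleen, had a bound of 2.78 on the log2 scale in spleen beside -0.02 ± 0.39 in thymus. The comparisons share arrays. The value of Cdkn1a rests largely on WT spleen, since thymus over spleen was 3.60 in WT and 0.24 in deltaDC. That of Cdkn3 rests on both spleen arrays, with thymus over spleen at 1.43 in WT and -0.93 in deltaDC. The WT spleen array was at least 2-fold below each other array for 2 of the 7 member probes measured on all 4, Cdkn1a and Cdkn3. This held for 1.57% of all 24577 such probes.

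The CDKs, cyclins and E2F factors on which the inhibitors act give the setting of these values. For each gene the brightest probe was used. The counts in these lists and in the marker lists stand beside the shares of all measured probes at least 2-fold apart. Between genotypes these were 4.28% higher and 3.54% lower in deltaDC spleen, and 0.796% and 0.872% in thymus. For thymus over spleen they were 4.67% and 5.35% in deltaDC and 4.82% and 4.96% in WT. In spleen, 4 of 11 measured cyclin and CDK genes were at least 2-fold higher in deltaDC and 0 lower, and the median was 0.49. They were the mitotic cyclins Ccnb2 (2.25), Ccna2 (2.20) and Ccnb1 (1.72) and the CDK-activating phosphatase Cdc25b (1.17). Ccna2, for one, had 1031 in deltaDC thymus, 1260.3 in WT thymus, 1179.7 in deltaDC spleen and 257 in WT spleen, with WT spleen lowest, as for Cdkn1a and Cdkn3. Of the Rb and E2F genes, 3 of 12 were higher and 0 lower (E2f7 at 2.08, E2f8 at 1.54 and E2f1 at 1.16), with a median of 0.61.

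Genes of dividing cells were also higher in deltaDC than in WT spleen. In spleen, deltaDC was at least 2-fold higher for 11 of 15 proliferation genes and lower for 0, with a median of 1.79 and Nusap1 (2.30), Ube2c (2.28), Tpx2 (2.18) and Birc5 (2.07) at the top. Mki67, the gene of the Ki-67 marker of cycling cells, had 5555 in deltaDC thymus, 7708 in WT thymus, 7144 in deltaDC spleen and 1864 in WT spleen. Its log2 difference was 1.94 in spleen and -0.47 in thymus. In thymus, 0 of 15 proliferation genes were higher in deltaDC and 1 was lower, the mitotic motor gene Kif11, at 147 in deltaDC and 295 in WT. Between the deltaDC organs 0 of 15 differed 2-fold, while in WT 12 of 15 were higher in thymus than in spleen, with Top2a (2.89), Nusap1 (2.75), Bub1 (2.70) and Tpx2 (2.52) foremost.

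In deltaDC, Cdk6 (1.14) was higher in thymus than in spleen and Cdc25b (-1.86), Rbl2 (-1.11) and E2f7 (-1.08) were lower. Cdk6 is a partner that the INK4 proteins bind. The organ comparison of WT held 4 of 11 cyclin and CDK genes at least 2-fold higher in thymus (Ccna2 at 2.30, Ccnb1 at 2.25, Ccnb2 at 2.10 and Cdk6 at 1.73). Of the Rb and E2F genes 5 of 12 were higher, with E2f8 (2.06), E2f7 (1.76), E2f1 (1.75) and Foxm1 (1.59) foremost.

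The p53 pathway, through which Cdkn1a is classically induced, had a median of -0.01 for deltaDC over WT in spleen. There 0 of 18 measured genes were at least 2-fold lower and 1 was higher in deltaDC, near the 4.28% of all probes. That gene was Pmaip1 (1.25), which encodes the apoptosis inducer Noxa. Trp53 had 383 in deltaDC thymus, 381 in WT thymus, 330.1 in deltaDC spleen and 444 in WT spleen. The p53 antagonist Mdm2 stood at 0.02 in spleen and -0.08 in thymus, and the p53 target Ccng1 at 0.36 and 0.16. In thymus 0 of 18 p53 genes differed 2-fold between genotypes. Between the organs Pmaip1 (-1.25) was lower in deltaDC thymus, and 0 of 18 differed 2-fold in WT.

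Of the 9 genes that degrade p27, 1 was at least 2-fold higher in deltaDC spleen, Cks1b (1.19), the cofactor of the Skp2 ubiquitin ligase. Skp2 itself had 243 in deltaDC thymus, 214 in WT thymus, 138 in deltaDC spleen and 99.9 in WT spleen, and between the WT organs both were higher in thymus (Skp2 at 1.10, Cks1b at 1.47). Cdkn1b is a known target of the FoxO factors. Of 12 other FoxO-linked genes of resting T cells, 0 differed 2-fold in spleen, with a median of -0.47. Foxo1 stood at -0.47 in spleen and 0.06 in thymus. Between the deltaDC organs Il7r (-1.46) was lower in thymus and Ccr7 (1.40) higher, and between the WT organs Klf2 (-1.17) and Txnip (-1.04) were lower.

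Regulators of the Ink4 locus were mostly level where Cdkn2a and Cdkn2b stood apart. In spleen, 1 of 15 measured was at least 2-fold higher in deltaDC and 1 lower, with a median of -0.20. Id2, an inhibitor of E-protein transcription factors, had 1803 in deltaDC thymus, 1903 in WT thymus, 15279 in deltaDC spleen and 1305 in WT spleen, a difference of 3.55 in spleen. Its relative Id1, a known repressor of p16, stood at -1.33. The Polycomb genes Bmi1 and Ezh2, which silence the locus, stood at -0.43 and 0.16 in spleen and at 0.06 and -0.09 in thymus. Mtap, which lies near Cdkn2a in the files' coordinates, had 699 in deltaDC thymus, 648 in WT thymus, 687 in deltaDC spleen and 654 in WT spleen. In deltaDC, Id2 (-3.08) was lower in thymus, and Id1 (1.40) and Ets2 (1.30) were higher.

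Of 12 genes of TGF-beta and cytostatic signalling, which governs Cdkn2b and Cdkn1a in many cells, 0 were at least 2-fold higher in deltaDC spleen and 2 were lower, Smad7 (-1.06), an inhibitory Smad, and Myc, a repressor of both inhibitors, at 1294 in deltaDC spleen and 2593 in WT spleen. Skil (1.28), Myc (1.18) and Tgfbr1 (1.08) were higher in thymus in deltaDC, and Klf10 (1.05) and Tgfbr1 (1.03) in WT. Of 13 other brakes on the cell cycle, 3 were higher in deltaDC spleen and 0 lower: Cables1 (3.15), which links CDKs to other kinases, Gadd45b (1.10) and Wee1 (1.04), the kinase that inhibits CDK1. Cables1 was also the 1 of 13 that was higher in deltaDC thymus (1.09). Its signals were 161 in deltaDC thymus, 75.7 in WT thymus, 308 in deltaDC spleen and 34.8 in WT spleen, so deltaDC was the higher in both organs. Klf6 was lower in thymus in deltaDC (-1.33) and in WT (-1.05), and Wee1 (1.79) and Cables1 (1.12) were higher in thymus in WT.

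**Figure D4:**
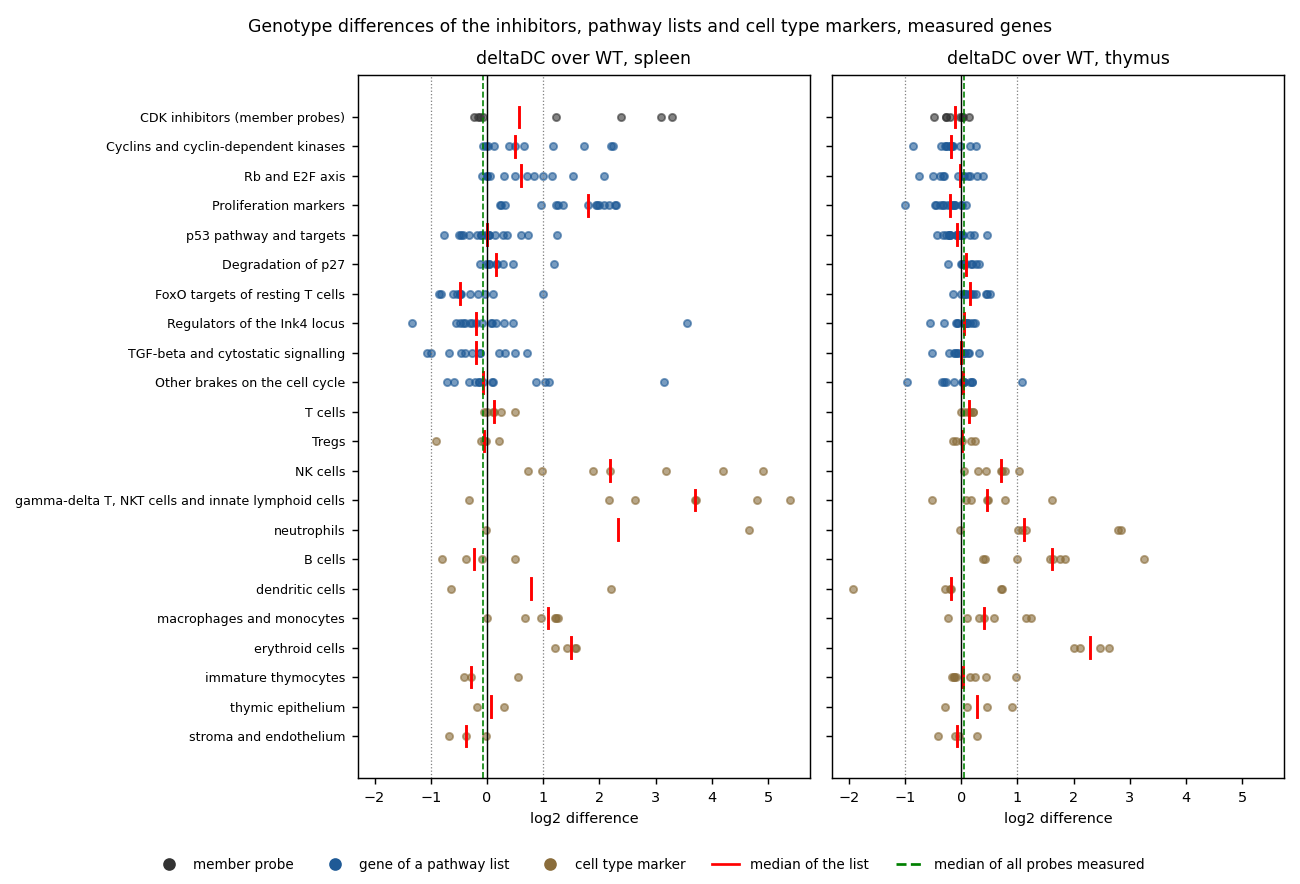
Log2 differences of deltaDC over WT (horizontal axes) in spleen and in thymus for the measured member probes, the genes of 9 pathway lists and the markers of 12 cell types. Red bars are list medians, the dashed line is the median of all probes and dotted lines mark 2-fold. In spleen the proliferation genes (median 1.79) and the markers of NK cells (2.18) and of gamma-delta T, NKT and innate lymphoid cells (3.69) lie to the right, and in thymus those of B cells (1.61) and erythroid cells (2.29) do.

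Markers of other cell types moved with the splenic comparison. Of T cell and Treg markers 0 of 6 and 0 of 5 were at least 2-fold apart, but Il2ra, the gene of CD25, on which the cells were sorted, was lower in deltaDC spleen, at 15568 in deltaDC and 29008 in WT (log2 difference -0.90). In thymus Il2ra had 25528 in deltaDC and 28159 in WT (-0.14). Of 7 measured NK markers 5 were higher in deltaDC spleen, and their summed scaled signal over 9 genes was 30862 in deltaDC spleen and 4135 in WT spleen (16130.5 in deltaDC thymus and 13534 in WT thymus). Such a sum follows its brightest probes and is no measure of cell number. Nkg7 alone had 23671 in deltaDC spleen and 2595 in WT spleen. Of 7 markers of gamma-delta T, NKT and innate lymphoid cells 6 were higher, with sums of 5860.3 in deltaDC spleen and 603 in WT spleen (1635 in deltaDC thymus and 1876 in WT thymus). For neutrophils 1 of 2 measured was higher and 6 more had bounds of at least 2-fold higher, with sums of 10012 in deltaDC spleen and 186 in WT spleen (2469.9 in deltaDC thymus and 957 in WT thymus). Their part in the differences of Cdkn1a, Cdkn2a, Cdkn2b, Cdkn2c and Cdkn3 was not tested.

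Macrophage markers were higher in deltaDC spleen for 3 of 6, with sums of 2820.5 in deltaDC and 1637 in WT, and erythroid markers for 4 of 4 measured. For dendritic cells 1 of 2 measured was at least 2-fold higher (Batf3 at 2.20), and 2 had bounds of at least 2-fold higher. The other measured gene, Siglech, was lower in deltaDC spleen (-0.63). The dendritic cell sum, nearly all from Siglech, was 46025 in deltaDC spleen and 70356 in WT spleen. For B cells 0 of 4 differed 2-fold in spleen, and Pax5 was not well above background on any array. In thymus, 5 of 8 markers of B cells were higher in deltaDC, as were 5 of 6 of neutrophils and 4 of 4 of erythroid cells. Their part in the thymic values of the member probes was not tested. Immature thymocyte markers set the organs apart, with sums of 51471 in deltaDC thymus, 55660 in WT thymus, 1639 in deltaDC spleen and 1463 in WT spleen. Most of the thymic sums came from Dntt, at 42243 in deltaDC and 46383 in WT. The part of these markers in the organ differences of Cdkn1c and the other members was not tested.

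The genes whose pattern over the 4 arrays was most like each inhibitor were found by the root mean square (RMS) difference of centred log2 values, over 3186 probes that spanned at least 1 log2 unit. For Cdkn1a they were Il1r2 (RMS 0.09), a decoy receptor for interleukin-1, Atp8b4 (0.10) and Nedd4 (0.10), a ubiquitin ligase. Il1r2 had 2769 in deltaDC thymus, 3391 in WT thymus, 2048 in deltaDC spleen and 253 in WT spleen, so it too was low in WT spleen alone. For Cdkn3 they were Baiap3 (0.02), Fam83g (0.09) and Kctd12 (0.11), for Cdkn2c Rilpl2 (0.02), Fam110a (0.05) and the adhesion molecule gene Icam1 (0.05), and for Cdkn1c Slc9a7 (0.02), Klf6 (0.03) and Vsir (0.04), which encodes a coinhibitory receptor. Cdkn1b and Cdkn2d spanned less than 1 log2 unit themselves, and their nearest genes were farther off, at 0.15 for 1810034E14Rik, Cyld and 4932438A13Rik and at 0.30 for 8030462N17Rik, Tubgcp4 and BC048403. Cdkn2a and Cdkn2b were not above background on all arrays and were left out. With 4 arrays, many genes can look alike.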

How the data were processed

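RNA of sorted Tregs was measured on 4 one-colour Agilent arrays that shared 1 slide, with 1 array per group and cells of 3 mice pooled per genotype. The deposited scanner output gives the intensity of each spot, which Agilent Feature Extraction (version 10.7.3.1, per the file headers) had background-subtracted within the array and not scaled between arrays. The authors also deposited a log2 matrix whose header states background subtraction and quantile normalization. Its columns, with medians of 4.10 to 4.15, correlated best with the array bearing their own label (Pearson r 0.996 to 0.997 over 59303 spots), which settles direction, while its offset stays unknown. The deposited columns of flags, 0 or 1, are other values used for filtering. The members, gene lists and alternatives were chosen with earlier results of these data known.

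Of 62976 spots per array, 3671 controls and the 110 to 168 outlier-flagged spots were removed, and 0 were saturated. Intensities were divided by each array's 75th percentile (340.2 to 418), multiplied by the mean of the 4 percentiles, set to log2 and averaged over a probe's spots. For a probe above background on 1 array only, a bound was set from its bright signal over the dim array's lowest above-background signal, or over the dim signal where that was higher. Scaled, those lowest signals were 15.8 in deltaDC thymus, 15.7 in WT thymus, 9.30 in deltaDC spleen and 17.3 in WT spleen. The flag is set spot by spot, so brighter signals can still be dim, and the bounds carry no spot error. Spot SD on the log2 scale was 0.36 below a signal of 20 and 0.06 from 2000 up, over 399 probes spotted 10 times. The number of arrays limits the precision, and no test was possible with 1 array per group. The difference script was tested on simulated data.

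Genes were named through RefSeq (GRCm38, names only), and probe coordinates are those of the files, on mm9. Every member probe is named. Of each pathway list, up to 4 genes at least 2-fold apart are named, with the greatest differences first, together with Trp53, Mdm2, Ccng1, Skp2, Foxo1, Mki67, Bmi1 and Ezh2 whatever their values, the 3 genes most like each member in pattern, and any gene singled out beyond this, Mtap, Foxp3 and Il2ra among them, which was chosen after its values were seen. Of 220 entries in the 9 pathway and 12 marker lists, 218 had a probe, and 1 marker is not reported here. Alternatives were normexp correction (offset 50, limma 3.58.1 in R 4.3.3), quantile normalization, median scaling, the authors' matrix, other filters on dim probes, flagged spots kept and a threshold of 1.5-fold. Other steps ran in Python 3.11.15 with pandas 2.3.3.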

Additional observations from a re-analysis of the deposited data

Results flagged for a closer look

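Cdkn1a drew attention because its genotype difference ran in opposite directions in the organs, each by more than 2 spot errors. The main probe was higher in deltaDC than in WT spleen (log2 difference 3.10) and lower in deltaDC than in WT thymus (-0.27), and the splenic minus the thymic difference was 3.37. The thymic value was only 1.20-fold, beside a median absolute log2 difference of 0.17 over all 26247 probes measured there. Spot error covers repeated spots alone, so a fall of Cdkn1a in deltaDC thymus is not established. The difference between the organs was not tested, since 1 array per group leaves no spread. The low value of WT spleen, 23.6, is the one that sets it apart, and 5 of its 10 spots were well above background.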

How the results depend on the processing

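Of 32 measured log2 differences of member probes, 32 kept their sign and 32 their side of 2-fold with flagged spots kept, 32 and 31 with median scaling, 32 and 29 with normexp correction, 31 and 32 with quantile normalization, and 30 and 31 in the authors' deposited matrix. The sign changed in 2 thymic differences near 0, that of Cdkn1b A_55_P2026562 (-0.08 with quantile normalization, -0.09 in the matrix) and that of Cdkn3 (-0.01 in the matrix). The side changed for the organ differences of Cdkn1c, Cdkn2c and Cdkn3 whose values stand in the report. With no filter on dim probes, the count of members at least 2-fold apart was 8 between the genotypes in spleen, 3 in thymus and 6 between the WT organs, against 4, 0 and 3, since all 13 probes then enter. Normexp correction left 1 of 3 between the WT organs, and limiting the count to probes above background on all 4 arrays left 2 of 4 between the deltaDC organs. Over all probes, normexp correction gave 616 higher and 261 lower in deltaDC spleen, against 1097 and 907, 57 and 51 in deltaDC thymus, against 209 and 229, 611 and 752 in thymus over spleen of deltaDC, against 1206 and 1381, and 675 and 503 of WT, against 1222 and 1258. Its offset compresses dim signals. Asking for more than 50% of a probe's spots above background, an alternative chosen after seeing the data, removes Cdkn1a from the measured probes in spleen and between the WT organs, with 3 and 2 members then counted. Of 84 list medians, 76 moved by less than 0.1 when each gene took the median of its probes, and 0 of those at 2-fold or beyond changed sign. No paired analysis was possible because each group had 1 array and the labels carry no replicate numbers. The dim signals of Cdkn2a, Cdkn2b and Cdkn1a on WT spleen limit what their fold changes can show.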

Other observations

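Genes beside Cdkn1a on chromosome 17 were looked up by the files' mm9 coordinates, a choice made after values were seen. Rab44, which encodes a large Rab GTPase, lies downstream at chr17:29285831-29285890 and had scaled signals of 2772 in deltaDC thymus, 3899 in WT thymus and 70.2 in deltaDC spleen, and was not well above background in WT spleen (4.72). It was thus low on both spleen arrays, whereas Cdkn1a A_51_P363947 was low on WT spleen alone. Between the spleen arrays Rab44 stood on the same side as Cdkn1a, at least 4.05-fold higher in deltaDC. Cpne5, farther downstream, stood on the other side by A_51_P124345, with 173 in deltaDC spleen and 354 in WT spleen (log2 difference -1.03), and 464 in deltaDC thymus and 528 in WT thymus. Of 12 probes at the locus that the files name as long non-coding RNAs by position, 3 were above background in deltaDC spleen and not in WT spleen, 0 the other way round, 3 in both and 6 in neither. The 3 had 64.4, 39.7 and 36.6 in deltaDC spleen and 14.1, 4.48 and 5.11 in WT spleen, with bounds of 3.72-fold, 2.29-fold and 2.11-fold higher in deltaDC. Over the whole array, 3326 probes were above background on 1 spleen array alone. How these divided between the spleen arrays was not counted, so the split at the locus is a description only. Of all spots, 50.7% were well above background in deltaDC spleen and 48.7% in WT spleen. Of the 3326 probes, 18.6% had bounds of at least 2-fold higher in deltaDC and 25.8% of at least 2-fold lower. The lowest above-background signals behind these bounds differed, at 17.3 in WT spleen and 9.30 in deltaDC spleen. Upstream, the splicing factor gene Srsf3 was level in spleen, with deltaDC over WT log2 differences of -0.13, -0.04 and -0.21 by its 3 probes. The 5 probes of lincP21, a long non-coding RNA known as a p53 target, were not well above background on any array.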
